A study of Mus musculus with 12 samples.

Results

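Superoxide dismutases and the thioredoxin system were examined in kidney proximal tubules as 8 genes: Sod1, Sod2, Sod3, Txn1, Txn2, Txnrd2, Txnip and Glrx. They are 8 of 18193 genes that the array's annotation names through probe sets with a single gene symbol. The 8 genes had 24 probe sets, of which 21 lay above 4 on the log2 scale on at least 3 of 12 arrays, and each gene is given by its brightest probe set, which was above 4 on all 12 arrays for every one of them. The values are log2 expression as deposited by the authors, so a difference of 1 is a doubling.

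Tubules were isolated by Percoll centrifugation from mice aged 20 weeks on a normal diet, and total RNA was hybridized to 1 array per sample. The 4 groups of 3 arrays were dB/dB catalase-Tg, dB/dB, catalase-Tg and wild type. The dB/dB mutation disables the leptin receptor and leads to obesity and diabetes, and catalase-Tg mice carry a catalase transgene, catalase being the enzyme that breaks down hydrogen peroxide. In published work on such mice the transgene is a rat catalase driven by the promoter of Kap, a proximal tubule gene that responds to androgens. The labels give no sex, strain or promoter and do not say whether each sample is a different animal. The p-values given here therefore rest on the spread among these samples, part or all of which could be technical.

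Superoxide dismutases turn superoxide into hydrogen peroxide, and peroxidases and catalase then remove the peroxide. Thioredoxins are small proteins that reduce disulfides in other proteins, among them the peroxiredoxins, and are themselves reduced by thioredoxin reductases with NADPH. Txnip binds reduced thioredoxin and inhibits it, and its transcription is known to rise with glucose through the factors ChREBP (Mlxipl) and MondoA (Mlxip) with their partner Mlx. In kidney cells Txnip is known to rise with high glucose, and the tubule's mitochondria are a known source of superoxide.

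Txnip lies at chr3:96557957-96561857, Txn1 at chr4:57943373-57956411 and Sod3 at chr5:52363804-52369738 (GRCm38.p6). The promoters of Txnip and Txn1, the inhibitor and the thioredoxin it binds, are shown because these 2 genes ran in opposite directions across the arrays. Of the 8 genes, 7 had a promoter window in RefSeq's table of GRCm38.p6, of 250 bases before and 50 after the gene's start, and Sod3 had no entry. In the Txnip window (chr3:96557707-96558006, plus strand) capitals mark a tandem of CACGNG, 5 bases of any kind and CACGNG again, the E-box pair through which ChREBP and MondoA are known to act, and a forkhead match, GTAAACA. In the Txn1 window (chr4:57956362-57956661, minus strand) capitals mark GC boxes, GGGCGG, on either strand.
Txnip: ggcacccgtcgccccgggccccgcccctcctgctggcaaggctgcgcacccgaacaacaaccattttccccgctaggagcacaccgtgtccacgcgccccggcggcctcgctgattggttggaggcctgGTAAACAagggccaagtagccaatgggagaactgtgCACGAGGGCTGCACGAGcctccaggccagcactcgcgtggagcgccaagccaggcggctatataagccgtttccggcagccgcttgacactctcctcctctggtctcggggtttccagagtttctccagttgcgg
Txn1: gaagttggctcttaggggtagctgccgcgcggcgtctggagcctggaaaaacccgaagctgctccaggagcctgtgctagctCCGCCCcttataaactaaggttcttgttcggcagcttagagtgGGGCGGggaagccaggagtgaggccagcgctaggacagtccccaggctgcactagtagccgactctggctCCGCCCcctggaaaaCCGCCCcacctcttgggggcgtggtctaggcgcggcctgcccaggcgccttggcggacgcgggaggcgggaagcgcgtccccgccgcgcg

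The tandem E-box of Txnip, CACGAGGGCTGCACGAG, begins 85 bases before the gene's start, and its letters were searched for because they were known from this gene. On either strand the pattern was found in 16 of 32851 promoter windows (0.0487%), and in none of the windows of the other 6 genes. The forkhead match begins 121 bases before the start, does not overlap the tandem, and GTAAACA was found in 3.65% of windows. The Txn1 window held 4 GC boxes that do not overlap each other, a motif found in 35.7% of windows. The core of the antioxidant response element, TGACNNNGC, was found in 12.4% of windows, in the Sod1 window and in none of the other 6. These matches describe letters in the windows and no binding was measured.

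The arrays did not separate cleanly by label, which bears on every comparison that follows. Cat read 12.44 ± 0.59 (SD, n = 3) in dB/dB catalase-Tg, 12.39 ± 0.16 in dB/dB, 12.27 ± 0.24 in catalase-Tg and 11.92 ± 1.10 in wild type, and Lepr lay below 4 on all arrays, so neither checks the labels. All 10 proximal tubule markers were above the filter, and their mean level was 11.95 to 12.85 on the dB/dB catalase-Tg arrays, 11.66 to 12.09 on the dB/dB arrays and 11.78 to 12.76 on the catalase-Tg arrays. On the wild-type arrays it was 10.17, 12.95 and 12.35, so wild type 1 had the lowest level of the 12. Markers of other kidney cells were present too, with 10 of 10 endothelial, 5 of 7 podocyte and 5 of 7 fibroblast and mural markers above the filter, while Aqp2, Scnn1b, Scnn1g, Col1a1, Col3a1, Cd68, C1qa, C1qb and Laptm5 were not. A score averaging the endothelial, podocyte and fibroblast and mural lists ran from -1.52 to 1.75 on the dB/dB catalase-Tg arrays and from 0.82 to 2.24 on the dB/dB arrays. It was at most -0.82 on the catalase-Tg arrays and ran from -1.91 to 2.06 on the wild-type arrays. It is called the other-cell score here, in log2 units around its mean over 12 arrays. Xist, a transcript of female cells, read 11.91 on wild type 2, 6.72 on wild type 3 and at most 2.67 elsewhere, and the Y-linked Eif2s3y was at the arrays' floor on wild type 2 and between 7.88 and 8.93 elsewhere, both genes being taken as sex checks with earlier results of these data known. In such preparations, fewer cells of a type and less RNA per cell cannot be told apart.

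Across the 4 groups, Txnip, Sod3 and Txn1 were the members with the widest differences. Sod3 and Txn1 had the opposite sign to Txnip in 4 pairwise comparisons and the same sign in dB/dB catalase-Tg against wild type (Txnip 0.67, Sod3 0.79, Txn1 0.30). The 5 others differed by at most 0.55 in size between any pair of groups compared. With limma and Benjamini-Hochberg adjustment over 18144 probe sets, 0 of the 8 genes passed an adjusted p of 0.05 in any of the 8 contrasts fitted. The share of all probe sets that passed was 0% in dB/dB against wild type, 0.0220% in catalase-Tg against wild type, 0.00551% in dB/dB catalase-Tg against dB/dB and 0.0276% when dB/dB catalase-Tg was set against catalase-Tg. It was 0.00551% in dB/dB catalase-Tg against wild type, 0.00551% for the interaction, 0.0165% for the dB/dB difference averaged over both transgene states and 0.0276% for the transgene difference averaged over both dB/dB states. At an unadjusted p under 0.05 there was 1 gene, Txnip, in dB/dB against wild type, where 4.16% of all probe sets lay under it. There was 1, Txn1, in dB/dB catalase-Tg against dB/dB (7.50% of all), 1, Txnip, in dB/dB catalase-Tg against catalase-Tg (6.86%), 0 in catalase-Tg against wild type (9.15%), 0 in dB/dB catalase-Tg against wild type (3.46%) and 0 for the interaction (1.64%). The averaged dB/dB difference had 1, Txnip (12.2%), and the averaged transgene difference 3, which were Sod3, Txn1 and Txnip (18.1%).

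**Figure D1:**
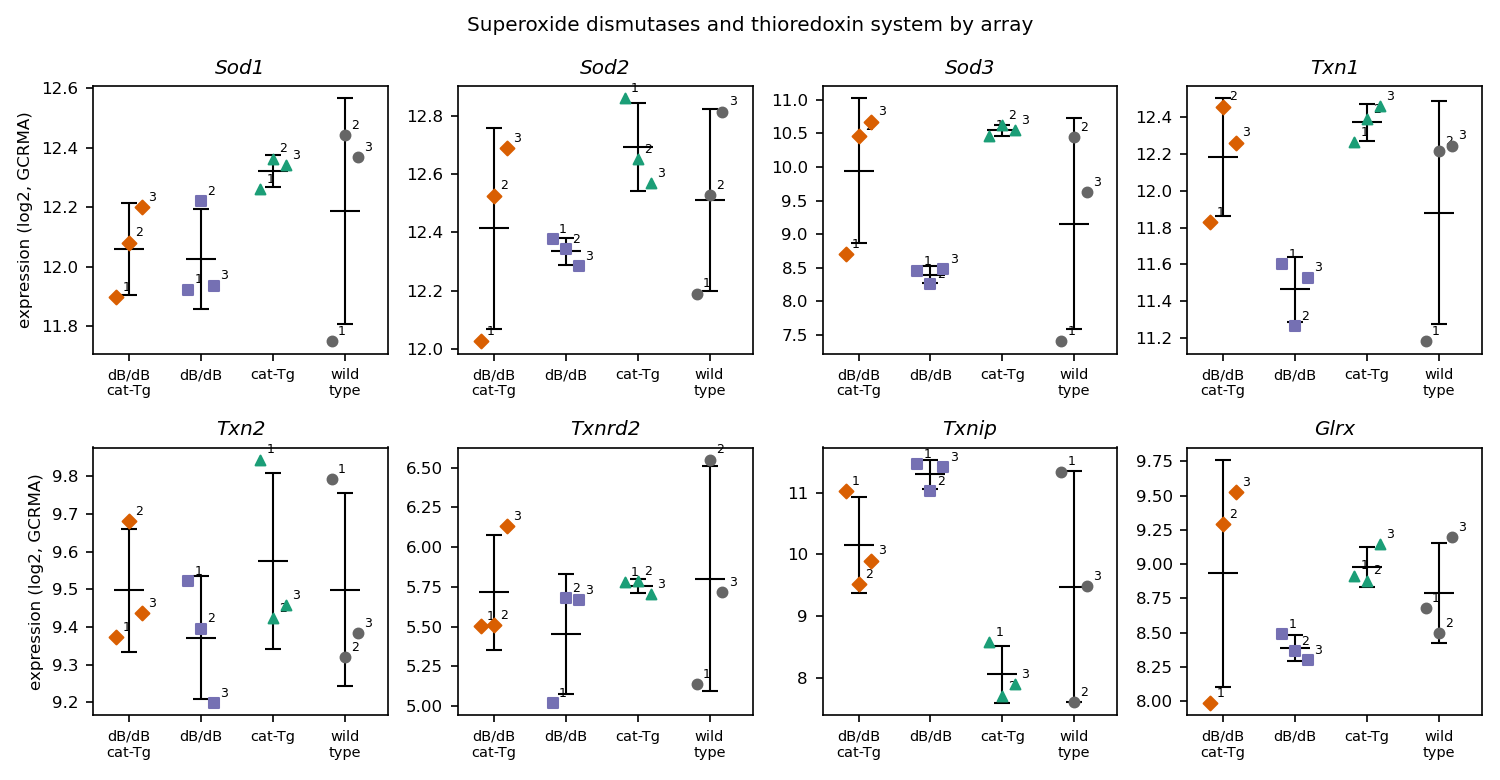
Log2 expression (GCRMA) of the 8 genes on each of the 12 arrays, in dB/dB catalase-Tg, dB/dB, catalase-Tg and wild type; points are arrays with their replicate number, and bars are the mean and SD of 3 arrays. Txnip read 11.02 to 11.46 on the dB/dB arrays and 7.70 to 8.58 on the catalase-Tg arrays, with wild type spread from 7.60 to 11.34.

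Txnip, the thioredoxin inhibitor, read 11.02, 9.52 and 9.90 on dB/dB catalase-Tg 1, 2 and 3. The dB/dB arrays read 11.46, 11.02 and 11.41. On the catalase-Tg arrays it was 8.58, 7.70 and 7.89, and 11.34, 7.60 and 9.48 on the wild-type arrays. The dB/dB arrays were thus uniformly high and the catalase-Tg arrays uniformly low, while wild type spanned nearly the whole range, with wild type 1 inside dB/dB and wild type 2 below every catalase-Tg array.

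The dB/dB genotype among transgenic mice gave the widest Txnip difference. dB/dB catalase-Tg averaged 10.15 ± 0.78 and catalase-Tg 8.05 ± 0.46 (SD, n = 3 each), a difference of 2.09 (log2, SE 0.76) or 4.27-fold, with an adjusted p of 0.682 by limma. All 3 dB/dB catalase-Tg arrays lay above all 3 catalase-Tg arrays, as was so for 6.67% of all probe sets. In dB/dB against wild type the means were 11.29 ± 0.24 and 9.47 ± 1.87, a difference of 1.82 (SE 0.76, adjusted p = 0.767), and the groups overlapped through wild type 1. Averaged over both transgene states the dB/dB difference was 1.96 (SE 0.54, unadjusted p = 0.00432, adjusted p = 0.372). The second Txnip probe set gave 2.27 (SE 0.85) between the 2 transgenic groups, again with no overlap, and 1.88 (SE 0.85) between dB/dB and wild type.

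Without wild type 1, the average dB/dB difference of Txnip was 2.42 and passed (adjusted p = 0.0121), and without wild type 2 it was 1.49 (adjusted p = 0.567). Leaving out each array in turn gave 0 to 1246 probe sets past the threshold for this average. The difference between dB/dB and wild type was 2.75 when wild type 1 was left out and 0.88 when wild type 2 was. Without wild type 2 and wild type 3 it came to -0.05 in place of 1.82, in a fit where the lone wild-type array is assumed to vary like the other groups. When dB/dB catalase-Tg 1, catalase-Tg 1 and wild type 1 were dropped, a choice made with earlier results known, it was 2.75 and passed (adjusted p = 0.0075). Many other probe sets passed in that fit too, and wild type is then represented by the pair of arrays that carry Xist. The difference between dB/dB catalase-Tg and catalase-Tg was 1.92 without those 3 arrays (adjusted p = 0.236), 1.28 with the other-cell score as a covariate (adjusted p = 0.424) and 1.93 with limma's array weights, where it passed (adjusted p = 0.0148) beside many other probe sets. This difference was positive in 25 of 25 alternatives, a count that is no measure of robustness. Leaving out a wild-type or dB/dB array, or changing only the filter or the spread, cannot move it.

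The transgene comparisons of Txnip ran downward in both backgrounds and did not pass. From dB/dB, dB/dB catalase-Tg differed by -1.15 (SE 0.76, adjusted p = 0.644), and dB/dB catalase-Tg 1, at 11.02, stood level with dB/dB 2. In catalase-Tg against wild type it was -1.42 (SE 0.76, adjusted p = 0.589), with wild type 2 below the catalase-Tg arrays, and it was -0.49 without wild type 1 and -2.36 without wild type 2. With the other-cell score as a covariate these became 0.16 and -0.19. The interaction, the transgene difference in dB/dB mice minus that in mice without the mutation, was 0.27 (SE 1.08, 95% confidence interval -2.11 to 2.66).

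**Figure D2:**
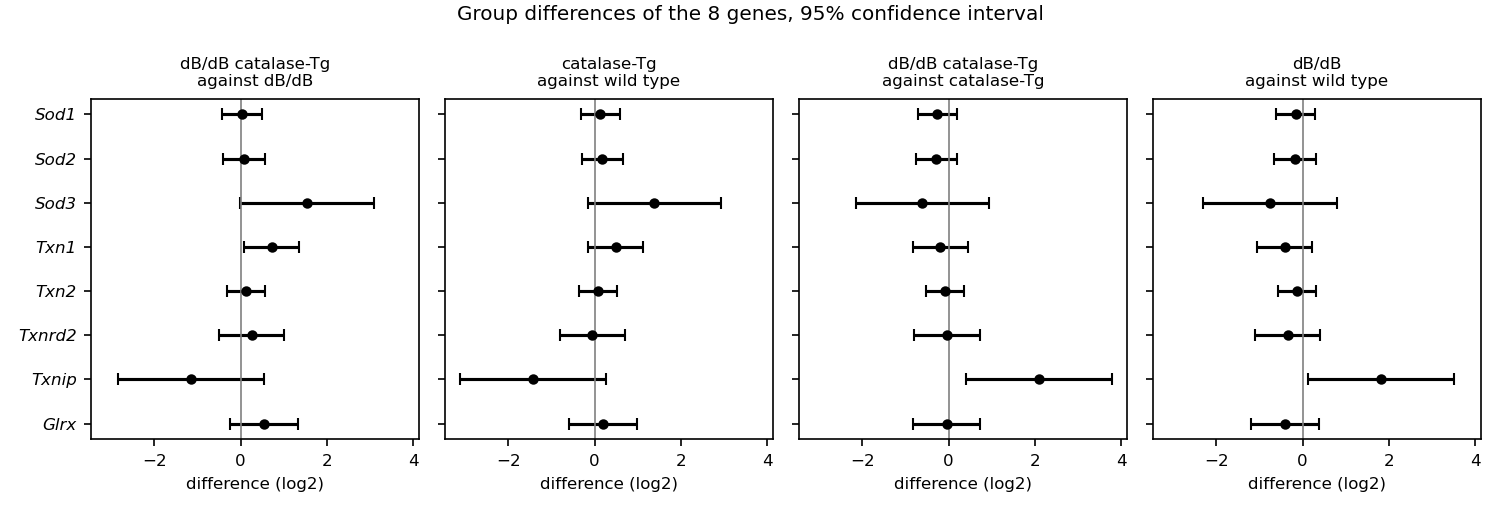
Difference in log2 expression (x axis) of each of the 8 genes in 4 comparisons, with points for the limma estimate from 12 arrays and bars for the 95% confidence interval before adjustment for multiple tests. Sod1, Sod2 and Txn2 have narrow intervals around 0, and Txnip and Sod3 wide ones.

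Sod3, the secreted superoxide dismutase, read 8.70, 10.45 and 10.67 on the dB/dB catalase-Tg arrays, and 8.45, 8.26 and 8.48 on the dB/dB arrays. It read 10.47, 10.63 and 10.54 on the catalase-Tg arrays, and 7.40, 10.45 and 9.62 on the wild-type arrays. High values were those of catalase-Tg, of dB/dB catalase-Tg 2 and 3 and of wild type 2, and low ones those of dB/dB, dB/dB catalase-Tg 1 and wild type 1.

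Sod3 in dB/dB catalase-Tg differed by 1.55 (log2, SE 0.70) or 2.92-fold from dB/dB, and in catalase-Tg against wild type by 1.39 (SE 0.70) or 2.62-fold, with adjusted p of 0.636 and 0.578 by limma. The 2 groups did not overlap in either comparison, as was so for 4.87% and 5.74% of all probe sets in the upward direction. The margins were small, however. In the first, dB/dB catalase-Tg 1 cleared dB/dB 3 narrowly, and in the second, catalase-Tg 1 cleared wild type 2 by even less. The second Sod3 probe set gave 2.37 (SE 1.16) and 1.74 (SE 1.16), and there the groups overlapped in both. In dB/dB against wild type Sod3 differed by -0.76 (SE 0.70, adjusted p = 0.767), and in dB/dB catalase-Tg against catalase-Tg by -0.60 (SE 0.70, adjusted p = 0.854). Single arrays moved both: the first was -1.64 without wild type 1 and -0.12 without wild type 2, and the second was 0.02 without dB/dB catalase-Tg 1. With the other-cell score as a covariate the 2 transgene differences were 0.41 and 0.32. Without wild type 1, the difference between catalase-Tg and wild type was 0.51, and without wild type 2 it was 2.03.

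Txn1, the cytosolic thioredoxin, read 11.83, 12.46 and 12.26 on the dB/dB catalase-Tg arrays, and 11.60, 11.26 and 11.53 on the dB/dB arrays. It read 12.27, 12.39 and 12.46 on the catalase-Tg arrays, and 11.18, 12.22 and 12.25 on the wild-type arrays. Every dB/dB catalase-Tg array was above every dB/dB array, as was so for 4.87% of all probe sets. Every catalase-Tg array was above every wild-type array, as was so for 5.74%, although catalase-Tg 1 cleared wild type 3 only narrowly. The differences were 0.72 (SE 0.29, adjusted p = 0.636), or 1.65-fold, and 0.49 (SE 0.29, adjusted p = 0.612). In dB/dB against wild type Txn1 differed by -0.42 (SE 0.29, adjusted p = 0.767). The second of these 2 transgene differences was 0.14 when wild type 1 was left out. The dB/dB difference was then -0.77, and it was -0.25 with wild type 2 left out instead. Averaged over both states, the transgene difference was 0.61 for Txn1 (SE 0.20, adjusted p = 0.201), 1.47 for Sod3 (SE 0.49, adjusted p = 0.201) and -1.28 for Txnip (SE 0.54, adjusted p = 0.252). With the other-cell score as a covariate they were 0.28, 0.37 and -0.02.

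The other-cell score moved with all 3 genes. On the 5 arrays with a score above 0.8, which were dB/dB catalase-Tg 1, the dB/dB arrays and wild type 1, Txnip lay between 11.02 and 11.46, Sod3 between 7.40 and 8.70 and Txn1 between 11.18 and 11.83. On the 5 arrays with a score below -1.2, which were dB/dB catalase-Tg 2 and 3, catalase-Tg 2 and 3 and wild type 2, Sod3 lay between 10.45 and 10.67 and Txn1 between 12.22 and 12.46. Txnip on these 5 arrays read 9.52 and 9.90 in dB/dB catalase-Tg, 7.70 and 7.89 in catalase-Tg and 7.60 in wild type. Loop of Henle and distal tubule markers, which are not in the score, averaged 11.14 to 11.99 on the dB/dB catalase-Tg arrays, 12.06 to 12.56 on the dB/dB arrays, 8.48 to 9.39 on the catalase-Tg arrays and 9.19 to 12.67 on the wild-type arrays. Over the 12 arrays Txnip had a Pearson r of 0.94 with these markers and 0.90 with the score. Sod3 had -0.82 and -0.93, and Txn1 had -0.75 and -0.84. The covariate in the fits was the score alone, so loop of Henle and distal tubule markers were not adjusted for. Proximal tubule markers were lowest on wild type 1, at 10.17, where Sod3 and Txn1 were also at their lowest. The part of these cells in the differences of Txnip, Sod3 and Txn1 was not tested. The covariate fit is no such test, because the score ran largely with the groups. It was at least 0.82 on the dB/dB arrays and at most -0.82 on the catalase-Tg arrays.

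**Figure D3:**
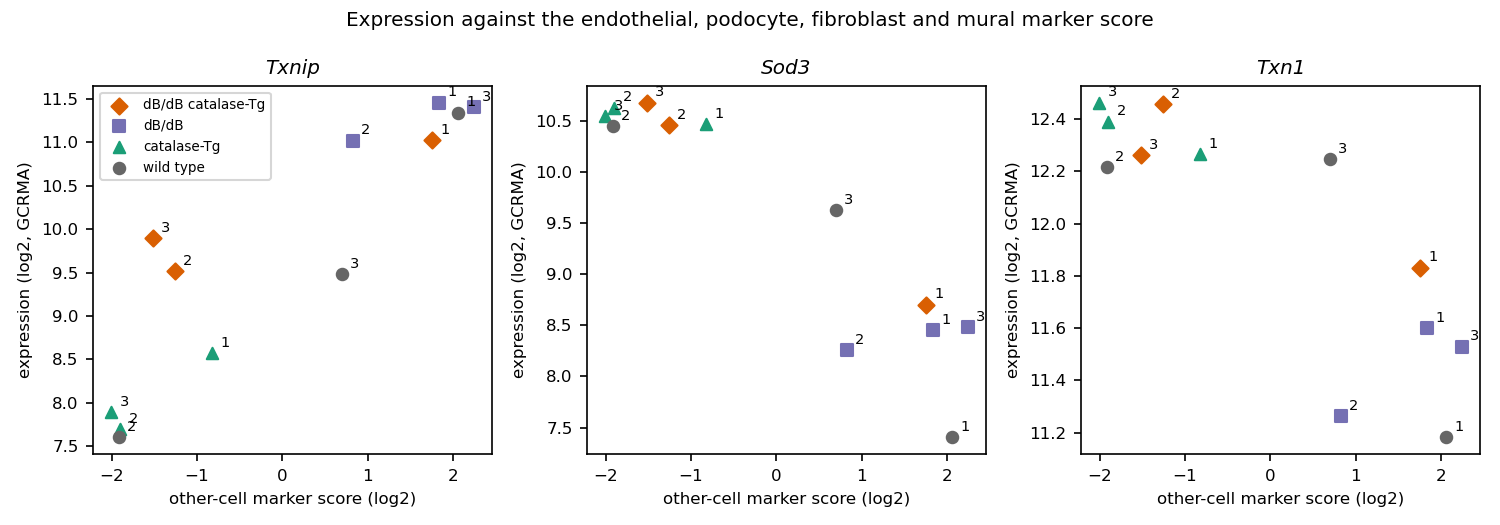
Log2 expression of Txnip, Sod3 and Txn1 (y axes) against the other-cell marker score of the array (x axis, mean log2 deviation of endothelial, podocyte and fibroblast and mural markers); each point is an array with its replicate number. Txnip is high and Sod3 and Txn1 are low on the 5 arrays with a score above 0.8.

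Sod1 and Sod2, the cytosolic and mitochondrial superoxide dismutases, varied little. Sod1 averaged 12.06 ± 0.15 in dB/dB catalase-Tg, 12.03 ± 0.17 in dB/dB, 12.32 ± 0.05 in catalase-Tg and 12.19 ± 0.38 in wild type (SD, n = 3 each). Sod2 averaged 12.41 ± 0.34, 12.33 ± 0.05, 12.69 ± 0.15 and 12.51 ± 0.31 in the same groups. For dB/dB catalase-Tg minus dB/dB the 95% interval of the difference ran from -0.42 to 0.49 for Sod1 and from -0.40 to 0.56 for Sod2, and in dB/dB against wild type from -0.61 to 0.29 and from -0.66 to 0.31. The Sod1 groups did not overlap in dB/dB catalase-Tg against catalase-Tg, at 11.90, 12.08 and 12.20 against 12.26, 12.36 and 12.34, with a difference of -0.26 (SE 0.20, adjusted p = 0.804), where 9.35% of all probe sets lay apart in this direction.

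The probe sets of Sod1 differed among themselves. The brightest is of the kind whose probes can match several transcripts. The dimmest of the 4 above the filter, singled out after its values were seen, read 5.68, 5.64 and 5.67 in dB/dB catalase-Tg, 5.90, 5.87 and 6.02 in dB/dB, 6.29, 6.71 and 6.81 in catalase-Tg and 5.82, 6.28 and 6.17 in wild type. Here the dB/dB catalase-Tg values were below those of every other group, a pattern whose share over all probe sets was not counted. The difference from catalase-Tg was -0.94 (SE 0.19, adjusted p = 0.385), in a comparison where 9.35% of all probe sets lay apart in this direction. The remaining 2 Sod1 probe sets above the filter differed by -0.26 and -0.04 in that comparison. Of the 3 Sod2 probe sets above the filter, 1 had dB/dB arrays all below wild type, as had 8.91% of all probe sets, with a difference of -0.61 (SE 0.39, adjusted p = 0.767).

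Txn2 and Txnrd2, the mitochondrial thioredoxin and its reductase, had no group that lay apart by their brightest probe sets. Txn2 averaged 9.50 ± 0.16 in dB/dB catalase-Tg, 9.37 ± 0.16 in dB/dB, 9.58 ± 0.23 in catalase-Tg and 9.50 ± 0.26 in wild type, and the differences of its 3 probe sets lay between -0.20 and 0.15 in the 4 comparisons plotted for the members. Its brightest probe set is of the kind that can also match unrelated sequences. Txnrd2 averaged 5.72 ± 0.36, 5.46 ± 0.38, 5.75 ± 0.05 and 5.80 ± 0.71 in the same groups. Within wild type alone it ran from 5.14 on wild type 1 to 6.55 on wild type 2. Its 4 probe sets had differences from -1.13 to -0.34 in dB/dB against wild type and from 0.26 to 0.90 in dB/dB catalase-Tg against dB/dB, with adjusted p of 0.636 or more. Of the 4, 1 had no overlap between the groups in both, where 8.91% of all probe sets lay apart downward in the first and 4.87% upward in the second. In catalase-Tg against wild type they ran from -0.05 to 0.52, and only the brightest lay below 0. In dB/dB catalase-Tg against catalase-Tg they ran from -0.52 to -0.04.

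Glrx, glutaredoxin, which reduces protein disulfides with glutathione, read 7.99, 9.29 and 9.52 in dB/dB catalase-Tg, 8.49, 8.37 and 8.30 in dB/dB, 8.92, 8.88 and 9.15 in catalase-Tg and 8.68, 8.50 and 9.20 in wild type. The highest and the lowest of the 12 values were both in dB/dB catalase-Tg. All 3 dB/dB arrays lay below wild type, as was so for 8.91% of all probe sets, but the nearest values differed by little and the difference of -0.40 (SE 0.35, adjusted p = 0.767) did not pass. For dB/dB catalase-Tg minus dB/dB it was 0.55 (SE 0.35, adjusted p = 0.642), and it was 1.02 without dB/dB catalase-Tg 1 and 0.25 without dB/dB catalase-Tg 3.

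Of the 8 members, 1, Txnip, lay above 0 in dB/dB against wild type, as did 38.0% of all probe sets (median -0.26, against -0.11 over all probe sets). When dB/dB catalase-Tg was set against dB/dB, 7 of 8 lay above 0, all but Txnip, as did 48.3% of all probe sets (median 0.19, against -0.02). In dB/dB catalase-Tg against wild type the members had a median of 0.07, and 0 of 8 had groups that did not overlap, against 8.04% of all probe sets. The first 2 of these comparisons share the dB/dB arrays.

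Among single genes on the array, those whose values over the 12 arrays were most like each member were Sult1a1 (Pearson r = 0.99) and Btg1 (r = 0.99) for Txnip, Gcdh (r = 0.98) and Aqp11 (r = 0.98) for Sod3, and Fgfr4 (r = 0.98) and Aqp11 (r = 0.98) for Txn1. For Sod1 they were Nup205 (r = 0.96) and Spp2 (r = 0.94), for Sod2 Phf5a (r = 0.96) and Thoc7 (r = 0.96), for Txn2 Snx15 (r = 0.88) and Ccdc97 (r = 0.85), for Txnrd2 Vldlr (r = 0.90) and Mmab (r = 0.89) and for Glrx Rab17 (r = 0.92) and Hes6 (r = 0.91). Sod3 and Txn1 had r = 0.96 with each other, and with Txnip they had r = -0.86 and r = -0.83. These are descriptions over 9743 other genes in 12 arrays that share the other-cell signal.

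Of 43 genes that work beside the members, 40 were named on the array and 37 were tested, and 0 passed in any contrast, in either direction. Nxn, Glrx3 and Nlrp3 lay below the filter, and Prdx1, Prdx5 and Prdx6 were not named by a single-symbol probe set here. In dB/dB against wild type, the 4 with the smallest p were Slc2a1, the glucose transporter GLUT1 (1.41, SE 0.56), Srxn1, sulfiredoxin, which repairs peroxiredoxins (-0.48, SE 0.23), Arrdc4, an arrestin relative of Txnip (0.47, SE 0.24), and Foxo3, a transcription factor that activates Sod2 (0.59, SE 0.33), each with an adjusted p of 0.767. Slc2a1 read 10.05, 10.42 and 10.28 on the dB/dB arrays and 10.47, 7.70 and 8.34 on the wild-type arrays, so that wild type 1 was above all of dB/dB. When dB/dB catalase-Tg was set against dB/dB, 3 of these genes were again among the 4 smallest p, with the opposite sign: Slc2a1 at -1.31 (SE 0.56), Srxn1 at 0.53 (SE 0.23) and Arrdc4 at -0.54 (SE 0.24), beside Sirt3, a mitochondrial deacetylase that acts on Sod2 (0.48, SE 0.18), each with an adjusted p of 0.636. Both comparisons share the dB/dB arrays, and the genes named were picked by their p.

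In catalase-Tg against wild type the smallest p were those of Txndc5, an endoplasmic reticulum disulfide isomerase (-0.75, SE 0.27), Sirt3 (0.43, SE 0.18), Mlx (0.70, SE 0.30) and Msrb3, a methionine sulfoxide reductase (-1.51, SE 0.72), with adjusted p of 0.532 to 0.553. In dB/dB catalase-Tg against catalase-Tg they were Mlx (-0.83, SE 0.30), Txnrd3, a thioredoxin reductase (-1.03, SE 0.48), Foxo3 (0.65, SE 0.33) and Txndc5 (0.47, SE 0.27), with adjusted p of 0.682 to 0.770. Mlx, the partner of ChREBP and MondoA, read 6.18, 7.33 and 6.99 in dB/dB catalase-Tg against 7.36, 7.71 and 7.91 in catalase-Tg.

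The glutaredoxins and glutathione supply genes had 0 of 6 tested genes past the threshold in each comparison. Their median difference was 0.45 in dB/dB catalase-Tg against dB/dB and 0.48 in catalase-Tg against wild type, beside -0.02 over all probe sets in both. In each, 5 of 6 lay above 0, as did 48.3% of all probe sets in the first and 47.5% in the second. This is 1 of 6 companion lists, and medians of the others are not given. Over all 37 tested companions the medians were 0.08 and 0.05, with 21 of 37 above 0 in each comparison. Gclm, the regulatory subunit of the enzyme that limits glutathione synthesis, read 8.85, 9.20 and 9.18 in dB/dB catalase-Tg and 8.25, 8.25 and 8.08 in dB/dB, and its average transgene difference was 0.81 (SE 0.29, adjusted p = 0.213). Msrb1, a selenoprotein that reduces oxidized methionine, had an average transgene difference of 0.77 (SE 0.26, adjusted p = 0.201) and Sirt3 one of 0.46 (SE 0.13, adjusted p = 0.186), the smallest adjusted p of the 37.

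**Figure D4:**
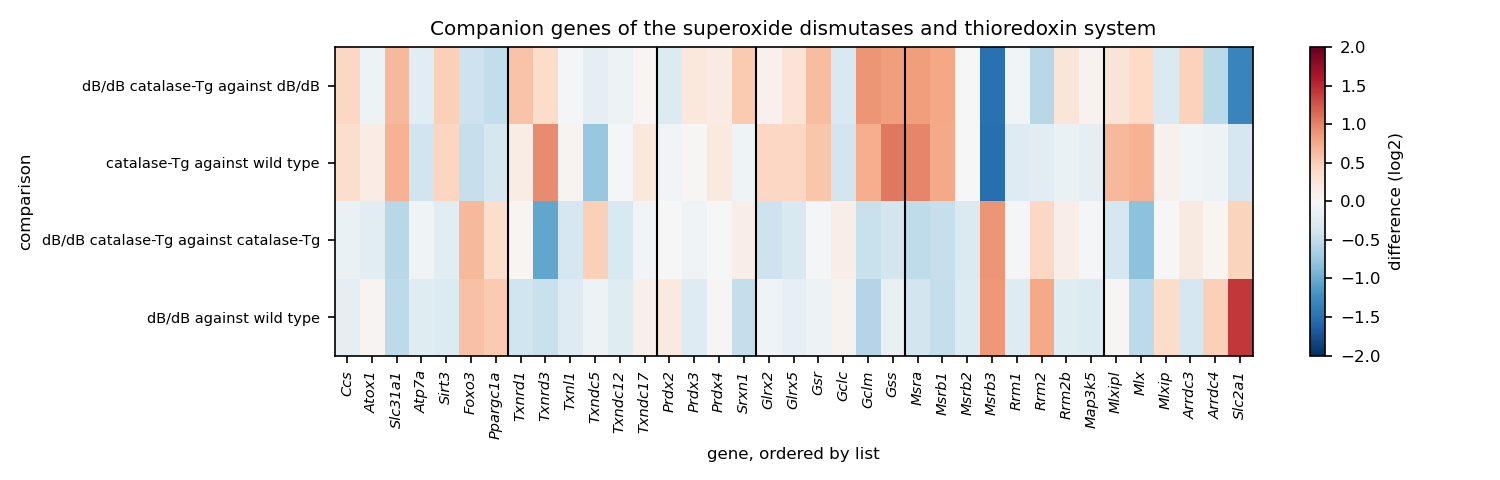
Difference in log2 expression (colour) of the 37 tested companion genes (columns, in 6 lists divided by black lines) in 4 comparisons (rows). Slc2a1 is red in dB/dB against wild type (1.41) and blue in dB/dB catalase-Tg against dB/dB (-1.31).

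The calls of the members depended on how the arrays were weighted. With limma's array weights, which gave 0.172 to dB/dB catalase-Tg 1, 0.287 to catalase-Tg 1 and 0.227 to wild type 1, 4 of the 8 genes passed in dB/dB catalase-Tg against dB/dB. They were Sod3 (2.07, adjusted p = 0.00201), Txn1 (0.81, adjusted p = 0.00297), Glrx (0.98, adjusted p = 0.00322) and Txnip (-1.61, adjusted p = 0.00645), in a fit in which 6989 of 18144 probe sets passed. The weights were estimated from these same arrays, and each of those 3 was the array least like the rest of its own group. Leaving them out makes the same selection and is no independent check. It gave Sod3 (adjusted p = 0.00195), Txn1 (0.00605), Glrx (0.0142) and Txnip (0.0426), among 5043 probe sets. Adding the other-cell score to the fit of 12 arrays gave 0 of the 8 genes.

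**Figure D5:**
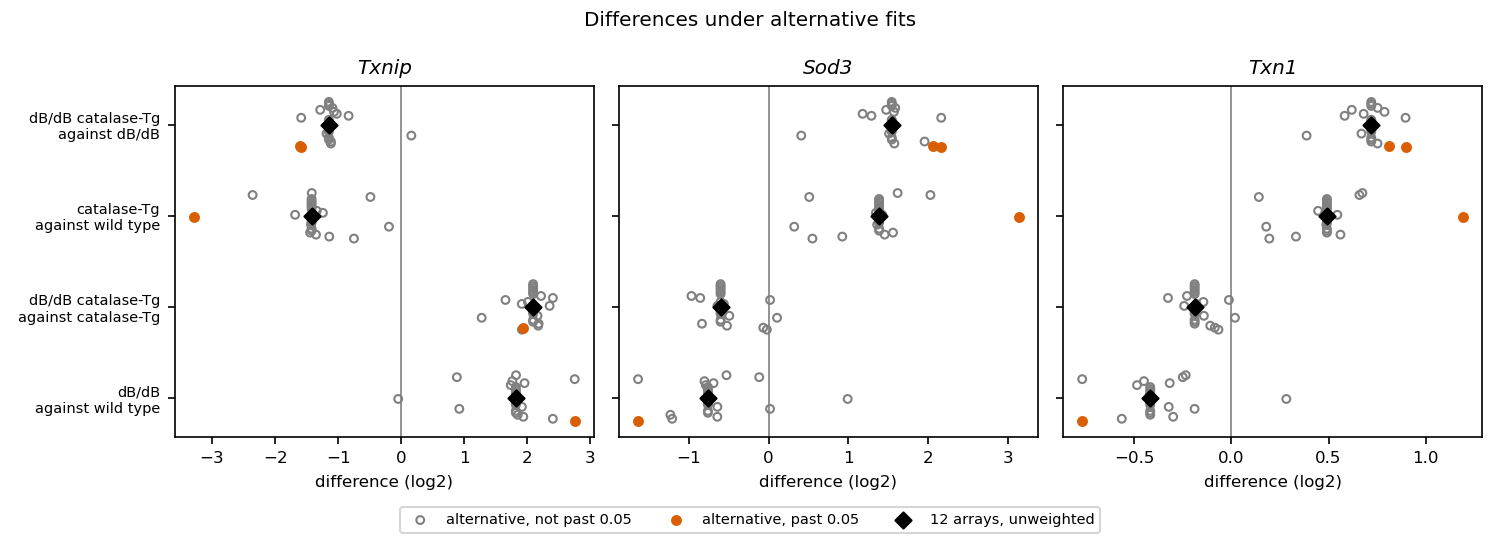
Difference in log2 expression (x axes) of Txnip, Sod3 and Txn1 in 4 comparisons; black diamonds are the unweighted fit to 12 arrays, open circles alternative fits with an adjusted p of 0.05 or more and filled circles those below it. In the comparison of dB/dB catalase-Tg with dB/dB, 2 alternatives are filled for each gene.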

How the data were processed

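The deposited values are log2 expression from the authors' GCRMA processing, per the submitters' processing notes, which also name limma; versions are not given in the sources used here. GCRMA corrects background, normalizes between arrays and summarizes each probe set, so scanner intensities were not used. Of 45101 probe sets, 64 were controls, 34945 had 1 gene symbol, 932 several and 9160 none. Probe sets above 4 on at least 3 arrays (18144) went into limma 3.58.1 (R 4.3.3) as lmFit and eBayes on 4 group means over 12 arrays, with Benjamini-Hochberg adjustment at 0.05, which gave every adjusted p unless another fit is named beside it; those refit the same limma model with arrays left out, array weights or a covariate. The number of arrays limits the precision. The code was tested on simulated data. A gene's brightest probe set over 12 arrays stands for it. Values are given for the 8 members, for up to 4 companion genes with the smallest p in each contrast, for Cat and Lepr, for Xist and Eif2s3y as sex checks, for the marker lists and for the 2 genes most correlated with each member. Members, lists and alternatives were chosen with earlier results of these data known. Same-numbered samples deviated together (every r over 0.1) in 3 of 5 pairwise comparisons: r was 0.396, 0.200 and 0.308 for catalase-Tg against wild type, 0.607, 0.453 and 0.426 for dB/dB catalase-Tg against catalase-Tg, and 0.705, 0.525 and 0.265 for dB/dB catalase-Tg against wild type. Differently numbered samples reached 0.357, 0.558 and 0.584 in these comparisons.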

Additional observations from a re-analysis of the deposited data

How the results depend on the processing

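The counts below are probe sets past an adjusted p of 0.05 by limma, and member genes where stated; the causes of the shifts were not tested. Each array left out in turn gave 0 to 1 member genes for the averaged dB/dB difference (Txnip, without wild type 1), 0 to 1 for the averaged transgene difference (Txnip at -1.75, adjusted p = 0.0334, without wild type 2) and 0 in the other 6 contrasts. Probe sets then ranged from 0 to 1246 for the averaged dB/dB difference, 2 to 969 for the averaged transgene difference, 3 to 270 in catalase-Tg against wild type, 0 to 107 in dB/dB against wild type, 1 to 22 in dB/dB catalase-Tg against catalase-Tg, 0 to 4 in dB/dB catalase-Tg against dB/dB, 0 to 7 in dB/dB catalase-Tg against wild type and 0 to 2 for the interaction. With dB/dB catalase-Tg 1, catalase-Tg 1 and wild type 1 left out, 3 members passed for the averaged dB/dB difference, 3 for the averaged transgene difference, 3 in dB/dB against wild type and 4 in dB/dB catalase-Tg against dB/dB, and in the order averaged dB/dB, averaged transgene, catalase-Tg against wild type, dB/dB against wild type, then dB/dB catalase-Tg against catalase-Tg, against dB/dB and against wild type, and interaction the probe sets were 3515, 3711, 31, 4875, 23, 5043, 24 and 143. Array weights, whose estimation stopped before full convergence, gave 1, 4, 0, 0, 1, 4, 0 and 0 members in that order and 1975, 4785, 6, 0, 883, 6989, 1 and 1 probe sets. With wild type 2 and 3 left out, 3 members passed for the averaged transgene difference and 3 in catalase-Tg against wild type, and probe sets were 0, 3375, 2180, 0, 174, 1, 29 and 0. Without a filter they were 5, 9, 14, 6, 7, 3, 8 and 6. With the replicate block they were 1, 7, 5, 0, 5, 1, 1 and 0, and the block changed no call of a member. With the other-cell score they were 0, 1, 4, 0, 5, 1, 2 and 1. With arrays centred on their medians they were 2, 3, 4, 0, 1, 1, 1 and 1, with the stricter filter above 6 they were 2, 4, 3, 0, 1, 1, 1 and 1, with quantile normalization 3, 5, 4, 0, 3, 1, 1 and 1, and with the mean of a gene's probe sets 4, 2, 2, 0, 3, 0, 0 and 1. Fits to only the groups compared gave 0 in catalase-Tg against wild type, 0 in dB/dB against wild type, 6 in dB/dB catalase-Tg against catalase-Tg, 2 against dB/dB and 0 against wild type. In all, 31 of 1608 member differences under an alternative passed where the unweighted 12-array fit had none, and 141 of 1608 had the opposite sign to that fit. These shares do not measure robustness, since many of the 1608 could not change sign. Settings that alter only the filter or the spread keep it, as does leaving out an array outside the groups compared.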
